A study of Homo sapiens with 60 samples.

Results

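The 10 genes described here, VIL1, CDH17, FABP1, ALPI, ANPEP, DPP4, CEACAM5, CEACAM6, KRT20 and CDX2, are textbook markers of the absorptive enterocyte and its brush border. They were listed by name for these roles, with earlier results of these data known, and are 10 of the 60675 genes in the deposited count table. Enterocytes are the absorbing cells of the gut lining. Their upper face carries the brush border, a dense field of microvilli that are held up by actin bundles and coated with digestive enzymes and transporters. The transcription factor CDX2 helps set and keep this intestinal identity, and many enterocyte genes are switched on as cells leave the crypt.

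RNA-seq measured the transcripts of HT29, an established line from a human colorectal adenocarcinoma, 24 h after adding a hot-water extract or vehicle. 4 extracts came from a single herb. Citrus peel is Citri Unshius Pericarpium, and cimicifuga stands for the root drug Cimicifugae Rhizoma. Bupleurum stands for Bupleuri Radix, and aconite for the processed root Aconiti Lateralis Radix Preparata. Yijung-tang, Banhasasim-tang and Bojungikgi-tang are mixtures of herbs. Each extract was given at 20, 100 and 500 µg/mL (low, medium and high dose), and the cells set against them received 0.1% DMSO per the sample labels. There were 3 libraries in each of 19 groups, 57 in all, and besides them 1 library per dose of Bojungikgi-tang. The labels describe routine growth of this 1 line and name no differentiating treatment. The labels do not say whether replicates came from separate cultures. The p-values thus reflect how much libraries of a group differed, and part of that may be technical.

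Libraries held 10.35 to 40.05 M counts (median 23.83 M), and 16485 genes passed the filter on low counts. Every sample title, vehicle included, names the same batch (BatchB). The sample descriptions carry codes that are shared by citrus peel and cimicifuga, by bupleurum and aconite, and by Yijung-tang and Banhasasim-tang, and that differ for vehicle. These are called library sets here, although the labels do not say what the codes mean. If they mark separate handling, set and treatment cannot be told apart in a comparison with vehicle, whereas doses of 1 extract, and extracts of 1 set, share a code. Over 57 libraries, summed epithelial markers (EPCAM, KRT8, KRT18, KRT19 and CDH1) lay between 9480 and 13000 counts per M (CPM). Summed markers were between 0.364 and 2.08 CPM for fibroblasts, between 1.01 and 2.66 CPM for endothelium and between 7.92 and 15.6 CPM for leukocytes. The leukocyte sum was nearly all CD68 and CD14. An earlier look at these data had singled out 4 libraries, aconite high 2, Banhasasim-tang high 2, vehicle 1 and bupleurum medium 2, and these are the 4 meant below by libraries that stood apart. They lay 0.336, 0.317, 0.154 and 0.181 from their group's mean (log2, root mean square over genes). The first 2 are the farthest of the 57, whereas Banhasasim-tang high 3 (0.207) and aconite high 1 (0.197) lay farther out than the other 2 of the 4. In the first 2 the median ribosomal protein gene lay 0.46 and 0.40 (log2) above its group's mean.

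The sequence before the transcription start is shown for 3 genes of the set. CEACAM5 and CEACAM6 are shown because both were called higher under aconite at the high dose in the results below. KRT20 is shown because it carries the letters of the recognition core of CDX2, itself 1 of the 10. Promoter windows from RefSeq (GRCh38.p14, 250 bases before to 50 after the start) were used for 8 of the 10 genes. Windows were searched on both strands for the core of the CDX2 site, written TTTATG. They were also searched for the TATA box, written TATAAA. The third was a core of the HNF4 site, written CAAAGTCC. The 250 bases before the start follow, on the gene's own strand, at chr19:41708376-41708625 (plus strand), chr19:41755280-41755529 (plus strand) and chr17:40885243-40885492 (minus strand), with the CDX2 core and the TATA box in capitals.
CEACAM5: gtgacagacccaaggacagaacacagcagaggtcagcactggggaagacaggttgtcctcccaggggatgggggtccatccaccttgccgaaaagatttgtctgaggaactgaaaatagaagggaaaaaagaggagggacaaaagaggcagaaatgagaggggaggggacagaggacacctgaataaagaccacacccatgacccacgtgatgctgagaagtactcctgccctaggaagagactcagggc
CEACAM6: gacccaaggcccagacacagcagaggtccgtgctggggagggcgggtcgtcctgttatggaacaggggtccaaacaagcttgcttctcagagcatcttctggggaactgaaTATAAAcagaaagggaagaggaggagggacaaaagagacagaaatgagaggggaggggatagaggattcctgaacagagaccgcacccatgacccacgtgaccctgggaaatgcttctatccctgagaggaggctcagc
KRT20: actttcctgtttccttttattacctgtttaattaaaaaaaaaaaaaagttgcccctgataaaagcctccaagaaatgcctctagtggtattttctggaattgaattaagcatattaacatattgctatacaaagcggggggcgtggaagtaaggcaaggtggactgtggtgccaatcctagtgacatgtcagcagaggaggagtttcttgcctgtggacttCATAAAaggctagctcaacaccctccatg
In KRT20 the CDX2 core lies on the opposite strand as CATAAA, with its first base 29 bases before the start (position -29). On the gene's own strand CATAAA differs from TATAAA only in its first letter, and which reading applies there was not tested. FABP1 also holds the CDX2 core as CATAAA, at position -89, with a TATA box at position -31. In CEACAM6 the letters TATAAA begin farther out, at position -139. Of 35116 RefSeq promoter windows, 10.6% held the CDX2 core and 11.5% the TATA box. The HNF4 core was found in ALPI, against 1.2% of all windows. The windows of CEACAM5 and CEACAM6 were identical at 236 of 311 aligned columns (75.9%), and none of these 3 letter strings was found in CEACAM5. A match is a run of letters and not a measured binding site.

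In HT29 cells the structural and surface genes of the set stood above most of its enzymes. Per kb of exon, the median library held 132 CPM of KRT20, a keratin of mature colon and intestinal epithelium, and 25.9 CPM of VIL1 (villin), which bundles actin in microvilli. CEACAM6, a surface adhesion molecule anchored by a lipid, stood at 11.4 CPM per kb and DPP4, a brush border peptidase that also clips incretin hormones, at 8 CPM per kb. Lower came CEACAM5 (carcinoembryonic antigen) at 1.85, the liver-intestine cadherin CDH17 at 1.37, CDX2 at 1.32 and FABP1, which carries fatty acids in the cytosol, at 0.694 CPM per kb. The peptidase ANPEP reached 0.0713 CPM per kb, a median of 9 counts per library. ALPI, the intestinal alkaline phosphatase that marks the differentiated brush border, had 22 counts in all and was at 0 in 39 of 57 libraries.

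The spread over libraries did not overlap between KRT20 and VIL1, between VIL1 and CEACAM6, or between FABP1 and ANPEP. CEACAM6 at 9.45 to 15.8 CPM per kb met DPP4 at 5.75 to 9.74, and the order of CEACAM5, CDH17 and CDX2 lay within their spread, with ranges of 1.13 to 3.58, 1.11 to 1.97 and 1.01 to 1.69 CPM per kb. FABP1 ranged from 0.45 to 1.06 CPM per kb, so it met CDX2 too. ALPI did not pass the filter, so 9 of the 10 genes were tested. CEACAM5 and CEACAM6 are related neighbours on chromosome 19 (41708585 to 41729798 and 41750977 to 41772208, plus strand, GENCODE 29 on GRCh38). ALPI has related genes in ALPP and ALPG. Any reads shared between such genes make these 3 less certain. In such bulk samples, fewer cells of a type and less RNA per cell cannot be told apart.

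**Figure D1:**
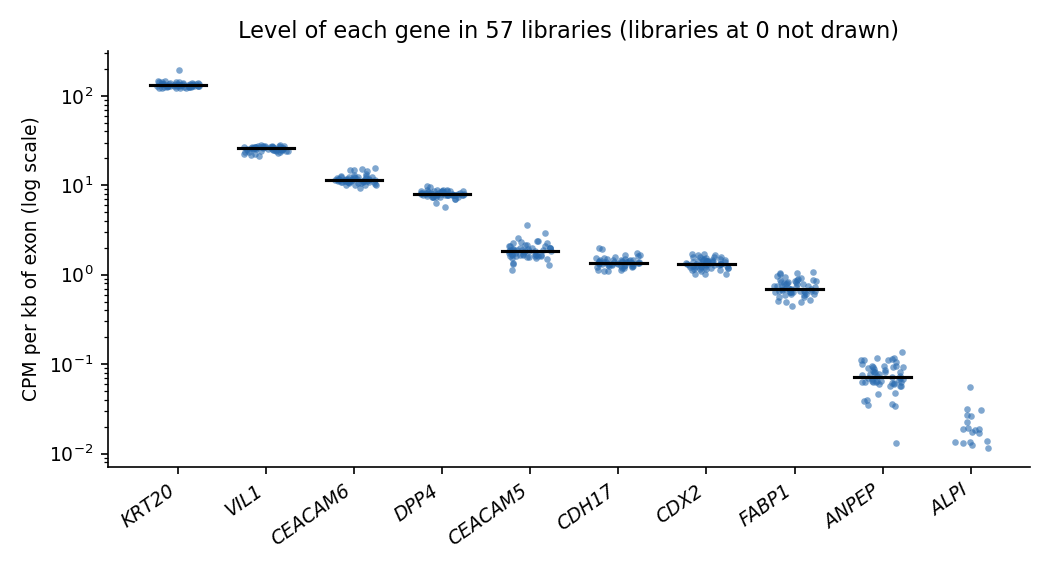
CPM per kb of exon (log axis) of each of the 10 genes, 1 point per library over 57 libraries, with bars at the median. KRT20 leads at a median of 132 CPM per kb, ANPEP lies at 0.0713, and only the libraries where ALPI was above 0 are drawn for it.

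VIL1 was lower at higher doses under the 6 extracts that had replicates. Its mean ran downward in the order low, medium, high for 6 of 6 extracts, and every high-dose library lay below every low-dose library in 6 of 6. VIL1 had 173, 179 and 184 CPM in vehicle, 178, 192 and 186 CPM at the low dose of aconite, 160, 167 and 175 CPM at the medium dose and 155, 152 and 156 CPM at the high dose. Low and medium do not overlap there, nor do medium and high. Vehicle overlaps the low and medium doses and lies above all 3 high-dose aconite libraries. Under 4 other extracts the low dose lay above all 3 vehicle libraries, with means of 189.8 CPM (citrus peel), 188.5 CPM (cimicifuga), 191.2 CPM (bupleurum) and 186.8 CPM (Yijung-tang), against 178.5 CPM in vehicle, none of them called (edgeR, adjusted p between 0.372 and 0.621). At the high dose citrus peel averaged 181.3 CPM, which overlaps vehicle.

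The high-dose mean of VIL1 was 83.6% of the low-dose mean under aconite, 88.1% under cimicifuga, 88.4% under bupleurum, 90.9% under Yijung-tang, 91.4% under Banhasasim-tang and 95.5% under citrus peel. Under cimicifuga it had 168, 167 and 163 CPM at the high dose, against 184, 192 and 189 CPM at the low dose. Under bupleurum it had 165, 170 and 172 CPM at the high dose, against 187, 193 and 193 CPM at the low dose. Both pairs of groups are apart by more than the spread within them. In Banhasasim-tang, high-dose VIL1 was 171, 149 and 171 CPM, against 180, 179 and 177 CPM at the low dose, so the lowest value is that of the library that stood apart.

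The change within 1 extract passed the test in 3 of 6 (quasi-likelihood test of edgeR, p adjusted by Benjamini-Hochberg over 16485 genes, threshold 0.05). The log2 fold change of VIL1, high over low dose, was -0.26 ± 0.0431 (SE, adjusted p = 2.44e-05) for aconite, -0.18 ± 0.043 (adjusted p = 0.0184) for cimicifuga and -0.18 ± 0.0428 (adjusted p = 0.0476) for bupleurum. VIL1 was the 1 gene of 9 called for cimicifuga, where 0.904% of all genes were called, and for bupleurum, where 0.297% were. Leaving out single libraries ended the cimicifuga call for 5 of 6 of them, namely all 3 high-dose libraries and low-dose libraries 2 and 3, with adjusted p up to 0.134. It ended the bupleurum call for each of 6, with adjusted p up to 0.389. The remaining 3 extracts gave -0.14 ± 0.0434 for Yijung-tang (adjusted p = 0.411), -0.13 ± 0.0436 for Banhasasim-tang (adjusted p = 0.134) and -0.07 ± 0.0428 for citrus peel (adjusted p = 1). In those 3 none (0) of the 9 genes was called in edgeR or DESeq2, with 4 of 27 tests at an unadjusted p under 0.05, where 0.0667% (citrus peel), 0.103% (Yijung-tang) and 0.231% (Banhasasim-tang) of all genes were called. Without the 4 libraries that stood apart, VIL1 was called for Yijung-tang too (-0.14 ± 0.0347, adjusted p = 0.0438).

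A contrast that averages high minus low dose over all 6 extracts was added after the VIL1 values had been seen, so its p-values describe a pattern already noticed. In it VIL1 changed by -0.16 ± 0.0176 (edgeR, adjusted p = 3.74e-09). Of the 9 genes 2 rose in it, CEACAM5 by 0.28 ± 0.0507 (adjusted p = 0.000103) and CEACAM6 by 0.09 ± 0.0256 (adjusted p = 0.0105), and 13.1% of all genes were called. With aconite left out of the average, 4.56% of all genes were called and VIL1 was the only call among the 9, at -0.14 ± 0.0193 (adjusted p = 2.16e-06). CEACAM5 then stood at 0.15 ± 0.0561 (adjusted p = 0.111), and at 0.18 ± 0.0522 (adjusted p = 0.0214) without the 4 libraries that stood apart.

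Counted after the VIL1 values had been seen, few genes shared this pattern. Group means fell with dose in all 6 extracts for 46 of 16485 genes (0.279%), and 22 genes (0.133%) had every high-dose library below every low-dose library in all 6. Both held for 7 genes: ATP9A, BCAS1, FAM131B, KLF6, LINC03040, SYTL2 and VIL1. Over 57 libraries, 10262 protein-coding genes were searched for likeness to VIL1 by log2 CPM. The closest were FAM131B (Pearson r = 0.83, Spearman rho = 0.82), FRMD4B (0.83 and 0.78) and SYTL2 (0.82 and 0.72). This describes libraries that share groups and sets. In Bojungikgi-tang VIL1 had 175, 174 and 163 CPM from low to high dose in its single libraries, a log2 ratio of -0.13 to vehicle at the high dose, and the high-dose value lay below all 3 vehicle libraries.

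**Figure D2:**
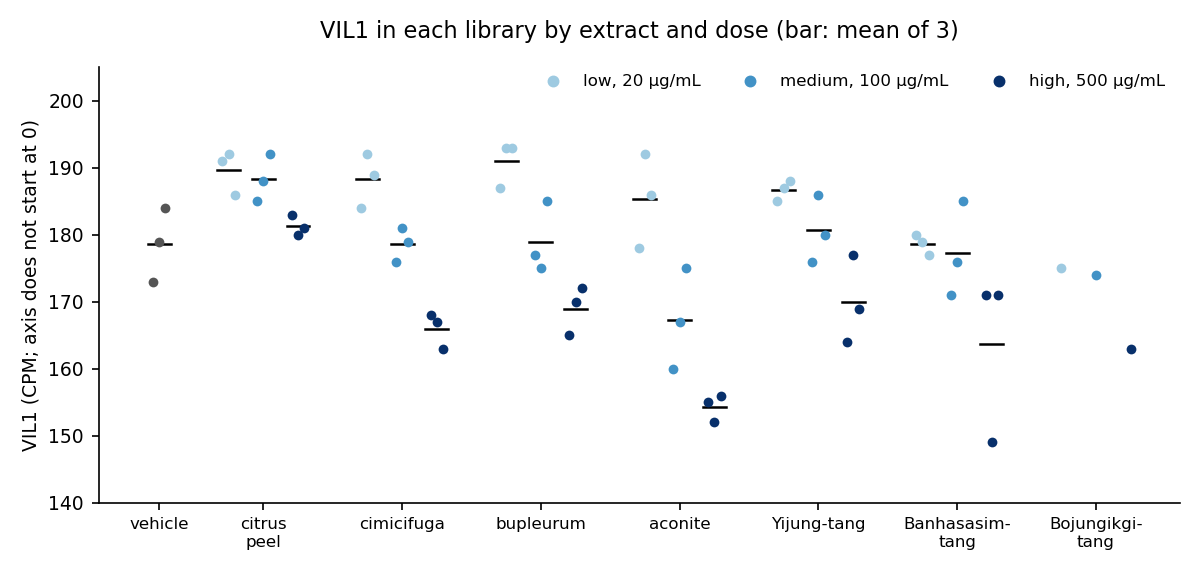
VIL1 in CPM in each library, by extract and dose, with vehicle on the left and bars at the mean of 3 libraries (none for Bojungikgi-tang). High-dose libraries lie below low-dose libraries under each of 6 extracts, most widely under aconite, where they lie between 152 and 156 CPM.

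Aconite at the high dose moved the most genes of the set, and not all one way. Against vehicle, 5 of 9 tested genes rose (CEACAM5, CDX2, CDH17, CEACAM6 and KRT20) and 1 fell (VIL1). Of all genes 15.9% were called, 8.58% higher and 7.29% lower. The median log2 fold change of the 9 was 0.26, against 0 over all genes, and it was 0.09 without aconite high 2. Against the low dose of aconite, in the same set, 4 rose (CEACAM5, CEACAM6, CDH17 and KRT20) and VIL1 fell. Of all genes 10.8% were called there, 5.81% higher and 5.03% lower, and the median was 0.22 for the 9 and 0.01 over all genes. Without aconite high 2 the median of the 9 was 0.07.

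CEACAM5 had the widest change. It stood at 7.06, 5.43 and 6.39 CPM in vehicle, at 5.86, 5.27 and 5.13 CPM at the low dose of aconite, at 8.02, 7.21 and 6.22 CPM at the medium dose and at 12, 8.67 and 9.72 CPM at the high dose. All 3 high-dose libraries lie above every other library of these groups. The log2 fold change was 0.71 ± 0.117 against vehicle (edgeR, adjusted p = 1.39e-05) and 0.91 ± 0.118 against the low dose (adjusted p = 1.3e-07), and both calls remained without any single library.

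CEACAM6 rose already at the medium dose. It had 33.7, 34.9 and 37.6 CPM in vehicle, 35.1, 34.7 and 34.9 CPM at the low dose of aconite, 45.5, 43.9 and 45.8 CPM at the medium dose and 46, 39.6 and 48.1 CPM at the high dose. Medium and high overlap, and both lie above vehicle and low. The log2 fold change was 0.34 ± 0.0621 at the high dose (edgeR, adjusted p = 9.19e-05) and 0.35 ± 0.0617 at the medium dose (adjusted p = 0.000198) against vehicle, and 0.36 ± 0.0619 for high over low (adjusted p = 4.31e-05). At the medium dose 2 of 9 genes were called against vehicle, where 4.67% of all genes were, and the other was CDX2.

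CDX2 had 5.14, 5.09 and 5.26 CPM in vehicle, 6.14, 5.93 and 4.76 CPM at the low dose of aconite, 6.98, 6.54 and 6.43 CPM at the medium dose and 6.98, 6.49 and 6.9 CPM at the high dose. High and medium lie above all 3 vehicle libraries, and the low dose spans both sides of vehicle. The log2 fold change against vehicle was 0.40 ± 0.114 at the high dose (edgeR, adjusted p = 0.0114) and 0.36 ± 0.113 at the medium dose (adjusted p = 0.0492), and the medium call was lost under every alternative tried (each of 6 libraries left out included, adjusted p up to 0.18). High over low gave 0.27 ± 0.112 (adjusted p = 0.112). Bupleurum at the high dose, which shares the description code with aconite, had 6.17, 5.75 and 6.1 CPM. These also lay above all 3 vehicle libraries but were not called. Citrus peel, which has another code, lay above all 3 as well and was not called. Its means were 5.931, 6.031 and 5.888 CPM from low to high dose, against 5.16 CPM in vehicle. Yijung-tang at the high dose lay below all 3 (4.679 CPM, not called), and groups not named here overlapped vehicle. What the codes have to do with CDX2 was not tested.

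CDH17 had 4.91, 5.24 and 6.89 CPM in vehicle, 5.68, 5.56 and 6.01 CPM at the low dose of aconite, 5.65, 6.47 and 6.43 CPM at the medium dose and 7.67, 6.34 and 7.56 CPM at the high dose. High overlaps vehicle through vehicle 3, but lies above every low-dose library. It rose by 0.35 ± 0.103 over vehicle (edgeR, adjusted p = 0.0133) and by 0.34 ± 0.102 over the low dose (adjusted p = 0.023). The first call was lost without vehicle 1, vehicle 2 or aconite high 3 (adjusted p up to 0.109), and the second without aconite high 1, high 3, low 1 or low 2 (up to 0.0847).

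For KRT20, 1 library decides the call. It had 246, 241 and 254 CPM in vehicle, 241, 258 and 266 CPM at the low dose of aconite, 247, 253 and 261 CPM at the medium dose and 258, 363 and 270 CPM at the high dose. The 363 CPM belongs to aconite high 2, the library in which ribosomal protein genes also lay 0.46 above their group. The log2 fold change was 0.26 ± 0.0655 against vehicle (edgeR, adjusted p = 0.00342) and 0.22 ± 0.0655 against the low dose (adjusted p = 0.0221). Without aconite high 2 it was 0.09 (adjusted p = 0.185) and 0.05 (adjusted p = 0.633), and the call against the low dose was also lost without low 1 or low 2.

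VIL1 fell against vehicle by 0.21 on the log2 scale (SE 0.0432, edgeR, adjusted p = 0.000545), a call that remained without any single library. The fatty acid carrier and the peptidases were not called under aconite at the high dose. FABP1 had 1.63, 2.55 and 1.97 CPM, against 2.32, 1.5 and 1.63 CPM in vehicle. DPP4 had 36.8, 43.9 and 37.3 CPM, against 31.5, 39.4 and 40.1 CPM in vehicle. ANPEP had 0.279, 0.364 and 0.381 CPM, against 0.395, 0.281 and 0.544 CPM in vehicle. The groups overlap for all 3, with log2 fold changes of 0.18 ± 0.223, 0.08 ± 0.0902 and -0.20 ± 0.377 (edgeR, adjusted p = 0.668, 0.626 and 0.836).

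The fit shares 1 estimate of spread over 19 groups, and the high-dose aconite libraries lay 0.171 to 0.336 (log2, root mean square over genes) from their group's mean, against 0.089 to 0.154 for vehicle. With the fit limited to the compared groups, none (0) of the 9 genes was called at an adjusted p under 0.05 for aconite high against vehicle or against low, and CEACAM5, high over low dose, then had a log2 fold change of 0.90 (edgeR, adjusted p = 0.0563). Without the 4 libraries that stood apart and with all other groups, KRT20 was lost in both comparisons and the other calls remained, 5 of 9 against vehicle and 4 of 9 against low. With no filter on low counts, VIL1, CDH17 and CDX2 were lost against vehicle, and CDH17 and KRT20 against low. Of 40 ribosomal protein genes, 4 rose in high over low dose with a median of 0.27. That median was 0 without aconite high 2, where CEACAM5, CEACAM6 and CDH17 were still higher and VIL1 lower.

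**Figure D3:**
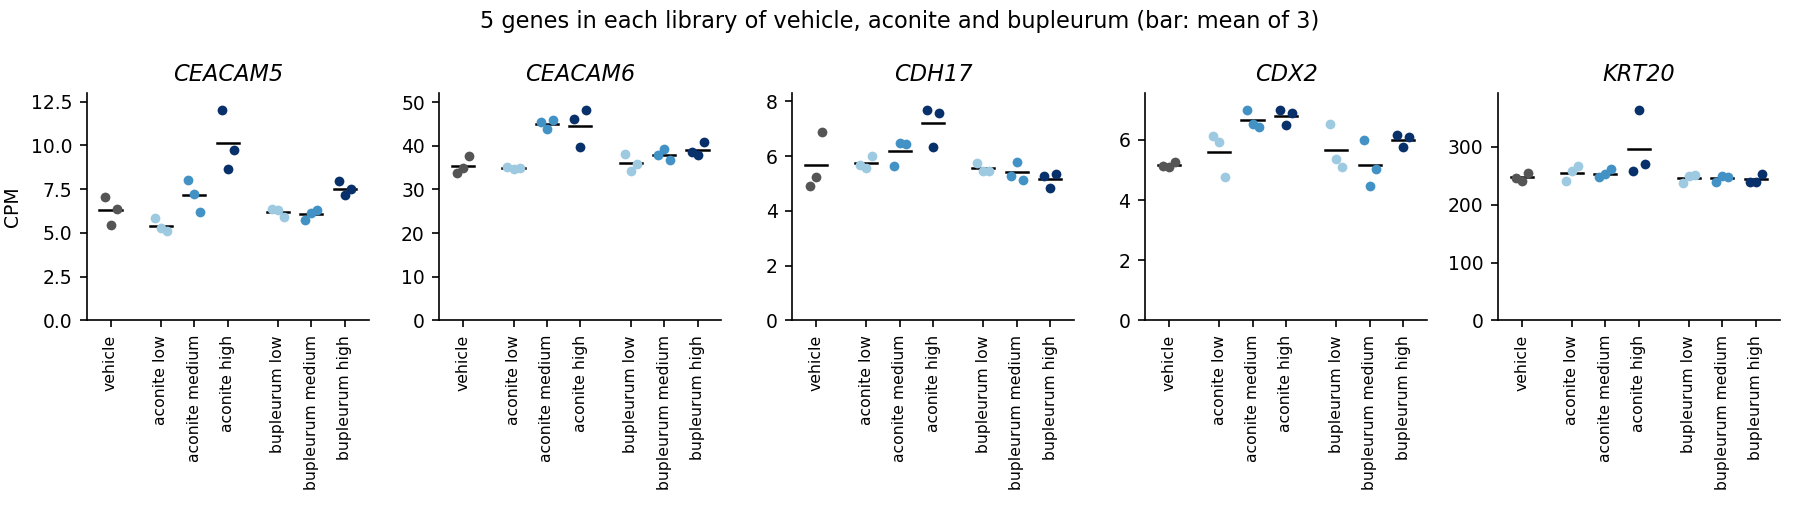
CPM of 5 genes in each library of vehicle, aconite at 3 doses and bupleurum at 3 doses, with bars at the mean of 3. The high-dose aconite libraries of CEACAM5 reach 12 CPM, and 1 of them stands alone at 363 CPM for KRT20.

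Aconite and bupleurum, roots tested in the same library set, could be compared without crossing sets. At the high dose 4 of 9 genes were higher with aconite than with bupleurum and none (0) lower. Of all genes 9.85% were called, 5.9% higher and 3.95% lower, and the median was 0.18 for the 9 and 0 over all genes. Without aconite high 2 the median of the 9 was 0.11. CDH17 had 7.67, 6.34 and 7.56 CPM with aconite, against 5.29, 4.83 and 5.35 CPM with bupleurum, without overlap (log2 fold change 0.50 ± 0.101, edgeR, adjusted p = 0.000582). CEACAM5 had 12, 8.67 and 9.72 CPM with aconite, against 7.94, 7.17 and 7.49 CPM with bupleurum (0.44 ± 0.112, adjusted p = 0.00764). Both sets of libraries are separate. The CDH17 call remained without any single library, whereas that of CEACAM5 was lost without aconite high 1 (adjusted p = 0.0652).

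KRT20 was higher by 0.28 ± 0.0654 (edgeR, adjusted p = 0.00314) and CEACAM6 by 0.20 ± 0.0612 (adjusted p = 0.032). The KRT20 call was lost without aconite high 2 (adjusted p = 0.224). The CEACAM6 groups overlap, at 46, 39.6 and 48.1 CPM with aconite, against 38.5, 37.8 and 40.9 CPM with bupleurum, and its call was lost without aconite high 1, aconite high 3, bupleurum high 1 or bupleurum high 2 (adjusted p up to 0.152). VIL1 had 155, 152 and 156 CPM with aconite, against 165, 170 and 172 CPM with bupleurum, and just missed the threshold (-0.13 ± 0.0431, adjusted p = 0.053). Again none (0) of the 9 was called with the fit limited to the compared groups. With all 19 groups in the fit, DESeq2 called 5 of 9, and 5 of 9 had an unadjusted p under 0.05 in edgeR. Both of these share the estimate of spread over all groups, so they do not bear on that loss.

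The rise with dose itself differed for 1 gene of 9, where 1.8% of all genes were called. CEACAM5 gained more from low to high dose under aconite than under bupleurum, by 0.63 ± 0.164 on the log2 scale (edgeR interaction, adjusted p = 0.0267). High-dose CEACAM5 averaged 10.13 CPM under aconite, against 5.419 CPM at its low dose, and 7.531 CPM under bupleurum, against 6.204 CPM at its low dose. This call was lost without any of 7 of 12 libraries (aconite high 1, low 2 and low 3; bupleurum high 2, high 3, low 1 and low 2), with adjusted p up to 0.087, and with the fit limited to the compared groups (adjusted p = 0.174).

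In the other comparisons no member was called. None (0) of the 9 genes passed in edgeR or DESeq2 for the other 5 extracts at the high dose against vehicle, where 0.0243% (citrus peel), 1.33% (cimicifuga), 1.52% (bupleurum), 1.14% (Yijung-tang) and 1.21% (Banhasasim-tang) of all genes were called, with 7 of 45 tests at an unadjusted p under 0.05. At the medium dose of those 5 the count was 0 as well (4 of 45 tests at an unadjusted p under 0.05), where 0% (citrus peel), 0.0303% (cimicifuga), 0.406% (bupleurum), 1.64% (Yijung-tang) and 3.1% (Banhasasim-tang) of all genes were called. So it was at the low dose of all 6 (5 of 54 tests at an unadjusted p under 0.05), where 0.00607% (citrus peel), 0% (cimicifuga), 0.801% (bupleurum), 1.61% (aconite), 1.51% (Yijung-tang) and 2.92% (Banhasasim-tang) of all genes were called. Among those tests DPP4 had 41.4, 43.7 and 48.8 CPM at the low dose of Yijung-tang, against 31.5, 39.4 and 40.1 CPM in vehicle (0.26 ± 0.0903, edgeR, adjusted p = 0.11).

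Extracts of the same set gave no call either. For cimicifuga against citrus peel and Banhasasim-tang against Yijung-tang at the high dose, 0 of 9 genes were called in edgeR, where 0.886% and 0.346% of all genes were, with 4 of 18 tests at an unadjusted p under 0.05. DESeq2 called 1, VIL1 in cimicifuga against citrus peel (-0.13, adjusted p = 0.0404), with 168, 167 and 163 CPM, against 183, 180 and 181 CPM. The difference in dose effect between the same pairs was not called for any gene (0 of 9 in edgeR and in DESeq2, with 2 of 18 tests at an unadjusted p under 0.05, where 0.115% and 0% of all genes were called). ANPEP had 0.0646, 0.189 and 0.313 CPM in Banhasasim-tang at the high dose, against 0.661, 0.493 and 0.567 CPM in Yijung-tang (-1.52 ± 0.436, adjusted p = 0.171), without overlap but on few counts.

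CEACAM5 at the high dose of cimicifuga had 6.75, 7.58 and 7.76 CPM, against 5.4, 5.65 and 5.53 CPM at the low dose, without overlap (0.41 ± 0.119, edgeR, adjusted p = 0.103). It was called when the 4 libraries that stood apart were left out (adjusted p = 0.0175) and with the fit limited to the compared groups (adjusted p = 0.047). In Bojungikgi-tang, with 1 library per dose and no test, none (0) of the 10 genes reached a log2 ratio of 0.5 to the vehicle mean on the CPM + 1 scale at any dose, where 1.94%, 3.78% and 3.18% of all genes did from low to high dose. Its ANPEP was at 0 counts at the medium dose, against 0.395, 0.281 and 0.544 CPM in vehicle.

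Other genes of the enterocyte program were read in lists chosen for their roles, with aconite high over low dose as the comparison. The counts below stand against 5.81% of all genes higher and 5.03% lower in that comparison, 10.8% together. Without the 4 libraries that stood apart, 12.7% of all genes were called in it. Of 22 genes of microvillus structure 21 were tested, and 4 fell, none (0) rose, with a median of -0.07, against 0.01 over all genes. These were the scaffold ANKS4B (-0.39 ± 0.0692, edgeR, adjusted p = 6.35e-05) and the myosins MYO6 (-0.27 ± 0.0686, adjusted p = 0.00587), MYO7B (-0.50 ± 0.149, adjusted p = 0.0222) and MYO1A (-0.81 ± 0.2, adjusted p = 0.0338). ANKS4B and MYO7B belong to the complex that links microvillus tips, and MYO1A ties the membrane to the actin core that villin bundles. VIL1 fell in the same comparison, as given above. Against vehicle, where 15.9% of all genes were called, 4 of these 21 fell and 1 rose. High over low, 7 fell and 2 rose without the 4 libraries that stood apart. Without aconite high 2 alone 4 fell and 2 rose, and of the 4 named here ANKS4B was still called (adjusted p = 0.000956), whereas the 3 myosins were not (adjusted p up to 0.145).

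Most digestive enzymes of the brush border were at low levels, as ALPI and ANPEP were. Of 20 genes listed under brush border hydrolases 16 had a median under 1 CPM and 9 were tested. This list, which includes CES2, is not one of brush border enzymes alone. The carboxylesterase CES2, at 33.9 to 49.5 CPM, DPEP1 at 14.6 to 22.4 CPM and the transpeptidase GGT1 at 4.91 to 8.45 CPM were the highest of the list over 57 libraries. The dipeptidase DPEP1 fell (16.77 ± 2.24 CPM at the high dose, against 20.12 ± 1.52 CPM at the low dose, SD, n = 3 each; adjusted p = 0.0251 in edgeR), and it was the only one of 9 called (2 of 9, both lower, without the 4 libraries that stood apart). The share called, 1 of 9, is near that of all genes. The median of the 9 was -0.17, and -0.07 without aconite high 2. Lactase, LCT, did not exceed 0.0888 CPM in any library and sucrase-isomaltase, SI, did not exceed 0.654 CPM.

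Of 25 transport genes 15 were tested, 6 fell and none (0) rose, with a median of -0.13. Without aconite high 2, 5 fell, 1 rose (the folate transporter SLC46A1) and the median was 0.02. SLC5A1, the sodium-glucose cotransporter of the brush border, averaged 11.03 ± 0.849 CPM at the high dose of aconite, against 19.49 ± 1.6 CPM at the low dose (SD, n = 3 each; log2 fold change -0.81 ± 0.0902, edgeR, adjusted p = 3.28e-09). SLC40A1, the iron exporter ferroportin, changed by -0.43 ± 0.0611 (adjusted p = 1.26e-06). SLC3A1, a subunit of the cystine and dibasic amino acid transporter, changed by -1.38 ± 0.232 (adjusted p = 2.61e-05), and SLC1A1, a glutamate transporter, by -0.24 ± 0.0438 (adjusted p = 0.000137). The groups of these 4, which were picked for the smallest adjusted p in this comparison, do not overlap. Each was also lower than with bupleurum at the high dose, where the same high-dose aconite libraries are used.

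Of 17 genes of lipid handling 9 were tested, with 3 higher at the high dose, none (0) lower and a median of 0.06, against 0.01 over all genes. PLIN2, a coat protein of lipid droplets, rose by 0.39 ± 0.0942 (edgeR, adjusted p = 0.00426), SCARB1, a lipoprotein receptor, by 0.21 ± 0.0588 (adjusted p = 0.014) and DGAT2, which makes triglyceride, by 0.22 ± 0.0699 (adjusted p = 0.0332). Without the 4 libraries that stood apart, or without aconite high 2 alone, 1 of 9 was called, SCARB1, a share near that of all genes. FABP1, a member of the same pathway, was not called.

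Of 22 colonocyte genes 19 were tested, with 4 lower, 1 higher and a median of -0.11 (6 lower and 1 higher without the 4 libraries that stood apart). The list also holds the epithelial markers EPCAM, KRT8, KRT18, KRT19 and CDH1 used above, so it is not one of mature colonocytes alone. The transmembrane mucins MUC13 (-0.54 ± 0.0647, edgeR, adjusted p = 2.44e-08) and MUC3A (-0.54 ± 0.122, adjusted p = 0.00196) fell, as did CLCA4 (-1.28 ± 0.305, adjusted p = 0.00343). CEACAM7, a neighbour of CEACAM5 and CEACAM6 in the same gene family, was the one that rose (1.14 ± 0.261, adjusted p = 0.00221). It averaged 1.845 ± 0.188 CPM at the high dose of aconite, against 0.846 ± 0.212 CPM at the low dose (SD, n = 3 each). CEACAM7 was also higher in Banhasasim-tang at the high dose, at 1.805 ± 0.332 CPM, against 0.3214 ± 0.149 CPM in Yijung-tang of the same set (2.39 ± 0.333, adjusted p = 6.12e-06). CEACAM5 in that comparison had 6.27, 4.34 and 5.63 CPM in Banhasasim-tang, against 6.25, 5.07 and 4.46 CPM in Yijung-tang, groups that overlap.

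Transcription factors of the intestine split, with 3 of 14 tested (of 18 listed) higher, 4 lower and a median of 0.01. HNF4G, a nuclear receptor of the enterocyte, averaged 41.52 ± 0.767 CPM at the high dose of aconite, against 58.53 ± 0.827 CPM at the low dose (SD, n = 3 each; -0.50 ± 0.0559, edgeR, adjusted p = 4.68e-09). ELF3, an epithelial ETS factor, changed by -0.27 ± 0.0539 (adjusted p = 0.000348). KLF4, a factor of differentiated and goblet cells, rose by 0.45 ± 0.1 (adjusted p = 0.00149). CDX2 itself was not called in this comparison.

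Among markers of other lineages, 2 of 7 tested goblet cell genes (of 9 listed) fell and none (0) rose, with a median of -0.46. ATOH1, the factor that sets the secretory fate, averaged 1.895 ± 0.361 CPM at the high dose of aconite, against 4.16 ± 0.762 CPM at the low dose (SD, n = 3 each; -1.11 ± 0.173, edgeR, adjusted p = 5.8e-06), and FCGBP, a mucus protein, changed by -0.97 ± 0.16 (adjusted p = 1.99e-05). Without the 4 libraries that stood apart, 4 of 7 fell. Summed goblet markers lay between 202 and 260 CPM at the high dose of aconite, against 286 and 295 CPM at the low dose, without overlap, with none of the 9 at 0 in every library of either group. That goblet sum is mostly AGR2, with a median over 57 libraries of 189 CPM, against 299 CPM for the sum. AGR2 was not among the 2 called, so the sum is not a measure of the goblet genes at large. Of 3 tested tuft cell genes 1 was lower, the channel TRPM5 (-1.26 ± 0.323, adjusted p = 0.0068), and of 4 tested stem cell genes 1, the receptor LGR5 (-0.38 ± 0.0872, adjusted p = 0.00216). Summed leukocyte markers lay between 13.2 and 15.6 CPM at the high dose, against 11.6 and 12 CPM at the low dose, without overlap. That sum is nearly all CD68 and CD14 (medians over 57 libraries of 7.78 and 3.26 CPM). PTPRC and CD3E did not exceed 0.127 and 0.0508 CPM in any library, so the sum is not a measure of leukocytes. Neither of the 2 tested of 4 was called, and 1 was higher without the 4 libraries that stood apart. The part of these markers in the changes of the enterocyte genes was not tested.

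**Figure D4:**
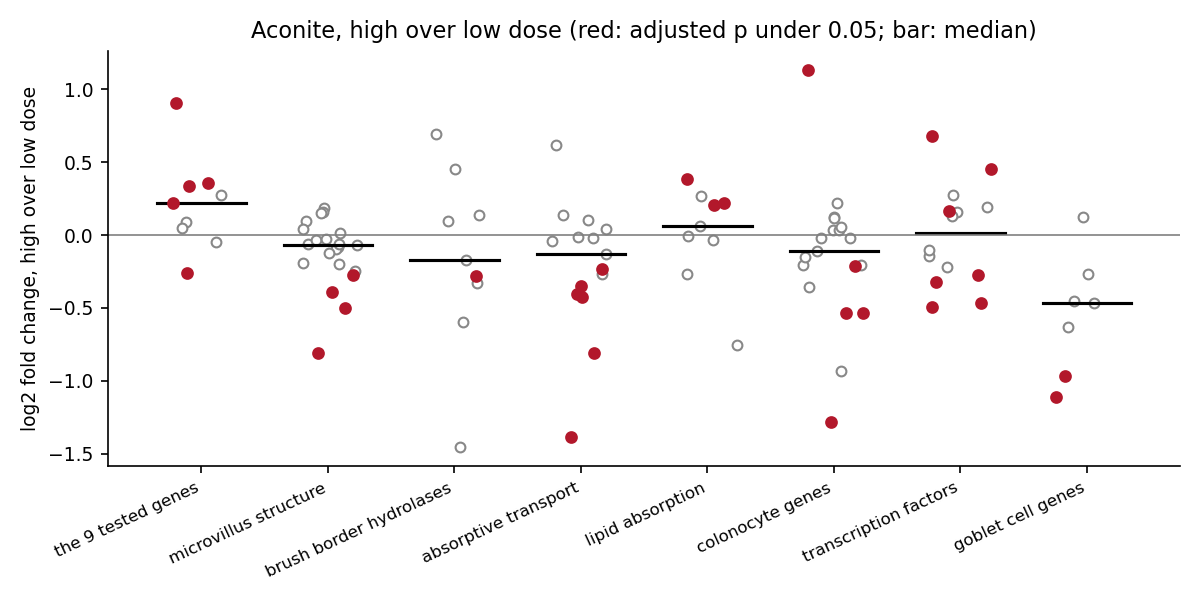
Log2 fold change of aconite at the high dose over its low dose for the 9 tested genes and 7 lists of related genes, 1 point per gene, red at an adjusted p under 0.05, with bars at the list's median. CEACAM7 stands highest among the colonocyte genes at 1.14, and red points of transport and goblet cell genes all lie below 0.

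The 9 genes did not move as a block over the 57 libraries. The closest pair was CEACAM5 and CEACAM6, with a Pearson r of 0.70 for log2 CPM, and 0.32 after the group means were taken out. CDH17 and CEACAM6 followed at 0.69 (0.44 within groups), and CEACAM6 and CDX2 at 0.52 (0.11 within groups). VIL1 and KRT20 went in opposite directions at -0.52, and -0.08 within groups. These r values describe libraries that share groups, sets and depth, and CEACAM5 and CEACAM6 may share reads.

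Likeness was searched among the 10262 protein-coding genes with mean log2 CPM of at least 1, and Pearson r is followed by Spearman rho. For most of them rho was clearly lower than r. Those most like CEACAM6 were ADGRF1 (0.82 and 0.64), THBS1 (0.81 and 0.62) and VIPR1 (0.81 and 0.55). For CEACAM5 they were SLC7A5 (0.77 and 0.63), AHCYL1 (0.74 and 0.55) and DESI1 (0.74 and 0.67). CDH17 was most like EPRS1 (0.70 and 0.55), CEACAM6 (0.69 and 0.57) and CARS1 (0.69 and 0.54). For KRT20, where aconite high 2 is the highest library, they were IMPDH2 (0.85 and 0.62), GHITM (0.83 and 0.58) and OSER1 (0.82 and 0.66). DPP4 was most like FBXO38 (0.77 and 0.68), CDX2 most like BAIAP2L1 (0.68 and 0.60), and FABP1, on few counts, most like FBXO4 (0.56 and 0.55).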

How the data were processed

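The deposited table holds estimated counts per gene (RSEM expected counts, as the authors made them, not normalized). Per the submitters' processing notes, the build was GRCh38 and the tools were RSEM 1.3.3, STAR 2.7.3a, Trim Galore 0.6.5 and FastQC 0.11.9. Which annotation and settings served for counting is not given in the sources used here. Per the labels' protocols, libraries were made with a directional (strand-marking) kit and read as paired ends. Of the table's 270 columns, 60 matched samples described here and 210 were not used. Counts were rounded to whole numbers (8.68% of values were not whole). RSEM shares out reads that match more than 1 gene, which may affect CEACAM5, CEACAM6 and ALPI most.

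Genes were filtered with filterByExpr, scaled with TMM and fitted with edgeR 4.0.16 (quasi-likelihood, group means, 57 libraries, R 4.3.3), with Benjamini-Hochberg adjustment over all 16485 tested genes and a threshold of 0.05. There were 30 comparisons: every extract at every dose against vehicle, the high against the low dose, pairs of extracts of 1 library set at the high dose, and the difference in dose effect within those pairs. A further 2, averaged over extracts, were added after seeing the values. CPM use TMM-scaled totals, and levels per kb divide by merged exon length (GENCODE 29). SE is the size of the log2 fold change over the root of its F statistic, and CPM errors are SDs of 3 libraries. Bojungikgi-tang, with 1 library per dose, was set against the vehicle mean as a log2 ratio (CPM + 1). The fit was tested on simulated data.

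The 10 genes and all lists were chosen with earlier results of these data known. From each related list, at most 4 genes with the smallest adjusted p are named, and 1 gene that this names is not reported here. For likeness, the 3 genes of highest Pearson r were taken among 10262 protein-coding genes with mean log2 CPM of at least 1. Symbols that end in P and a number, DPP4 and FABP1 among them, were left out of that search. The promoter windows searched for letter strings covered neither VIL1 nor CDH17, so whether these genes hold such strings was not tested. Alternatives were DESeq2 1.42.0, RLE scaling, no filter, a replicate block, a batch term for RN7SL2, the compared groups alone, and leaving out libraries. RN7SL2, a cytosolic RNA, lay between 3.45 and 9.9 CPM in vehicle and in replicates 1 and 2 of citrus peel and cimicifuga, and at 40.85 CPM or more elsewhere, a split that cuts across the library sets read from the description codes. Same-numbered replicates had an r of at least 0.13 throughout only for bupleurum, high against low dose (r = 0.25, 0.13 and 0.22). Citrus peel, high against low, had r of 0.32, 0.06 and 0.25, so the difference is one of degree. The sample titles give replicate numbers and name no pairing. Vehicle is 0.1% DMSO in the sample labels. The design text of the series names another percentage, and a dose rule for toxic extracts, and the labels were followed.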

Additional observations from a re-analysis of the deposited data

Results flagged for a closer look

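The difference in dose effect of CEACAM5 between aconite and bupleurum was 0.631 on the log2 scale (high over low dose, aconite minus bupleurum, SE 0.164, edgeR interaction, adjusted p = 0.0267). It drew attention because the same contrast of doses gave different sizes in extracts of the same library set. All 3 high-dose libraries of aconite lay above its low-dose libraries, and the same was true of bupleurum. It was the only 1 of the 9 tested genes for which such a difference was called.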

How the results depend on the processing

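No called change of a gene reversed its direction under any alternative tried. For aconite high against vehicle the 6 calls became 3 with no filter on low counts and 0 with the fit limited to the compared groups. The 5 calls of aconite high against low became 3 and 0 under the same settings. The 4 calls of aconite against bupleurum became 0, and the 1 call of their dose effect 0, with only the compared groups. Aconite medium against vehicle kept 1 of 2 calls under RLE scaling, no filter, the replicate block, the RN7SL2 term, the compared groups alone and DESeq2. The CDX2 call of aconite high against vehicle was also lost with the RN7SL2 term. With no filter the single VIL1 calls of cimicifuga and bupleurum, high against low, became 0, and cimicifuga had 2 with only the compared groups.

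Without the 4 libraries that stood apart, counts became 1 for Banhasasim-tang low against vehicle (CEACAM6), 2 for cimicifuga high against low, 1 for Yijung-tang high against low (VIL1), 2 for cimicifuga against citrus peel (VIL1 and KRT20), 3 for the aconite and bupleurum dose effect, and 2 for the average of 5 extracts. DESeq2 called 1 for cimicifuga against citrus peel, and the RN7SL2 term gave 1 for Yijung-tang low against vehicle (DPP4). A pseudocount of 0.25 CPM put 1 gene, ANPEP at 0, past the ratio for Bojungikgi-tang at the medium dose.

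With each library left out in turn, counts ran from 5 to 6 for aconite high against vehicle, from 3 to 5 for high against low, from 2 to 4 for aconite against bupleurum, from 0 to 3 for their dose effect, and at 1 for aconite medium. They ran from 0 to 1 for cimicifuga high against low and stayed at 0 for bupleurum. Banhasasim-tang high against low ran from 0 to 1 (VIL1, without its high-dose library 1 or 3), as did Banhasasim-tang against Yijung-tang (ANPEP, without Banhasasim-tang high 3). The averages of 6 and 5 extracts ran from 3 to 4 and at 1. For the dose effect, CDH17 and CEACAM6 were called besides CEACAM5 without aconite high 2, and KRT20 without aconite high 1.

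For bupleurum high against low, where same-numbered replicates deviated together, the replicate block left VIL1 at -0.18 (edgeR, adjusted p = 0.0328). The block gave 5 calls for aconite against bupleurum, where same-numbered replicates did not deviate together. The cause of these shifts was not tested. ANPEP, with a median of 9 counts per library, FABP1 with 45 and ALPI at 22 counts in all limit what could be detected for the enzymes and the fatty acid carrier.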
